A study of Hyphopichia burtonii and Hyphopichia pseudoburtonii with 16 samples.

Results

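The response to salt was compared between the wild-type yeasts Hyphopichia pseudoburtonii (strain KJS14) and Hyphopichia burtonii (strain KJJ43) 15 min after salt was added, gene by gene. A gene of one species was paired with a gene of the other where the Swiss-Prot accession in its description, or else its gene name, occurred once in each species' table. This gave 3415 pairs out of 5900 genes of H. pseudoburtonii and 6115 of H. burtonii, of which 3399 pairs had enough signal to be tested and 16 did not. The measure is the change in log2(FPKM + 1) between 0 and 15 min in H. pseudoburtonii, less the change in H. burtonii, so a positive difference means that expression went up more, or down less, in H. pseudoburtonii. FPKM is the number of sequenced fragments per kilobase of transcript, scaled to the number of mapped fragments.

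Both strains come from Nuruk, a starter for fermentation used in Korea. Cultures were started at an OD600 of 0.6 in YPD, a rich glucose medium, and at 2.0 the same volume of YPD with 2 M NaCl was added, which brought the salt to 1 M. H. pseudoburtonii was harvested 15 min after the addition (2 libraries) and before it at 0 min (2 libraries), and H. burtonii likewise, which makes 8 libraries, and a further 8 came from the harvests at 5 and 30 min. Fresh medium came with the salt in every culture and no course without salt was analysed here, so the effects of salt and of fresh medium cannot be told apart. Each species is 1 strain, and whether libraries of a group came from separate cultures is not given, so the p-values measure only the spread between these samples, which may be technical. The FPKM of each species came in a table of their own and species and table coincide, so levels are not compared between the species, and every comparison sets a change within one table against a change within the other.

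High salt draws water out of a yeast cell and lets sodium in. In the budding yeast Saccharomyces cerevisiae the Hog1 kinase cascade answers with glycerol production and stress genes, calcineurin and ion pumps deal with sodium and calcium, and genes for making ribosomes are usually turned down for a time. Hyphopichia species are ascomycete yeasts of salty and fermented foods, and the roles given below for single genes are those known from S. cerevisiae, Candida albicans or the organism named.

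Libraries of a group correlated at r = 0.938 and 0.985 in H. pseudoburtonii at 15 and 0 min and at r = 0.967 and 0.953 in H. burtonii, over the log2 values of the 3399 pairs. The deposited files hold no counts and total depth is unknown. A relative depth, read from the smallest FPKM above 0 times gene span, put the H. pseudoburtonii libraries of 15 min at 0.267 and 0.496 of that species' deepest library and those of 0 min at 0.974 and 1. In H. burtonii the estimates were 0.602 and 0.797 at 15 min and 0.541 and 0.464 at 0 min. Depth thus moved down with time in one species and up in the other, and its part in the differences was not tested. In H. pseudoburtonii 397 and 240 genes were listed at 0 at 15 min and 224 and 212 at 0 min, and in H. burtonii 63 and 54 at 15 min and 170 and 160 at 0 min. A value listed at 0 can be a failed estimate, so differences that rest on zeros are marked as such.

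A species difference was called for 707 of the 3399 pairs (20.8%), 200 higher in H. pseudoburtonii (5.88%) and 507 lower (14.9%), at an adjusted p under 0.05 in limma. The called differences were at least 0.677 in size on the log2 scale, 662 of them were at least 1 (182 higher, 480 lower) and 235 at least 2 (53 higher, 182 lower), against a median standard error of 0.404. Within the species, 309 paired genes rose (9.09%) and 306 fell (9%) in H. pseudoburtonii, and 716 rose (21.1%) and 210 fell (6.18%) in H. burtonii. This balance turned with the scaling, and the H. burtonii counts were 324 rises (9.53%) and 406 falls (11.9%) under median-ratio scaling and 259 (7.62%) and 320 (9.41%) under quantile scaling. The H. pseudoburtonii counts were 234 rises (6.88%) and 376 falls (11.1%) under median-ratio scaling and 261 (7.68%) and 305 (8.97%) under quantile scaling. Over all tested genes of each species, 574 of 5798 rose (9.9%) and 452 fell (7.8%) in H. pseudoburtonii, 17.7% in all, and 1379 of 6047 rose (22.8%) and 419 fell (6.93%) in H. burtonii, 29.7% in all. Of the paired genes that rose, 94 did so in both species, which is 30.4% of those of H. pseudoburtonii and 13.1% of those of H. burtonii, and 46 fell in both, 15% and 21.9% of each. Across the 3399 pairs the changes of the 2 species correlated at Pearson r = 0.132 and Spearman rho = 0.108, a description across genes, which are not independent replicates.

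With the values as deposited, the called pairs fell into a few classes by what each species did. Among the 507 lower pairs, 242 were genes called as rising in H. burtonii with no call in H. pseudoburtonii, 144 were genes called as falling in H. pseudoburtonii with no call in H. burtonii, and 48 fell in H. pseudoburtonii and rose in H. burtonii. Among the 200 higher pairs, 74 rose in H. pseudoburtonii with no call in H. burtonii, 70 fell in H. burtonii with no call in H. pseudoburtonii, and 13 moved in opposite directions. A further 35 higher and 57 lower pairs had no call within either species.

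**Figure D1:**
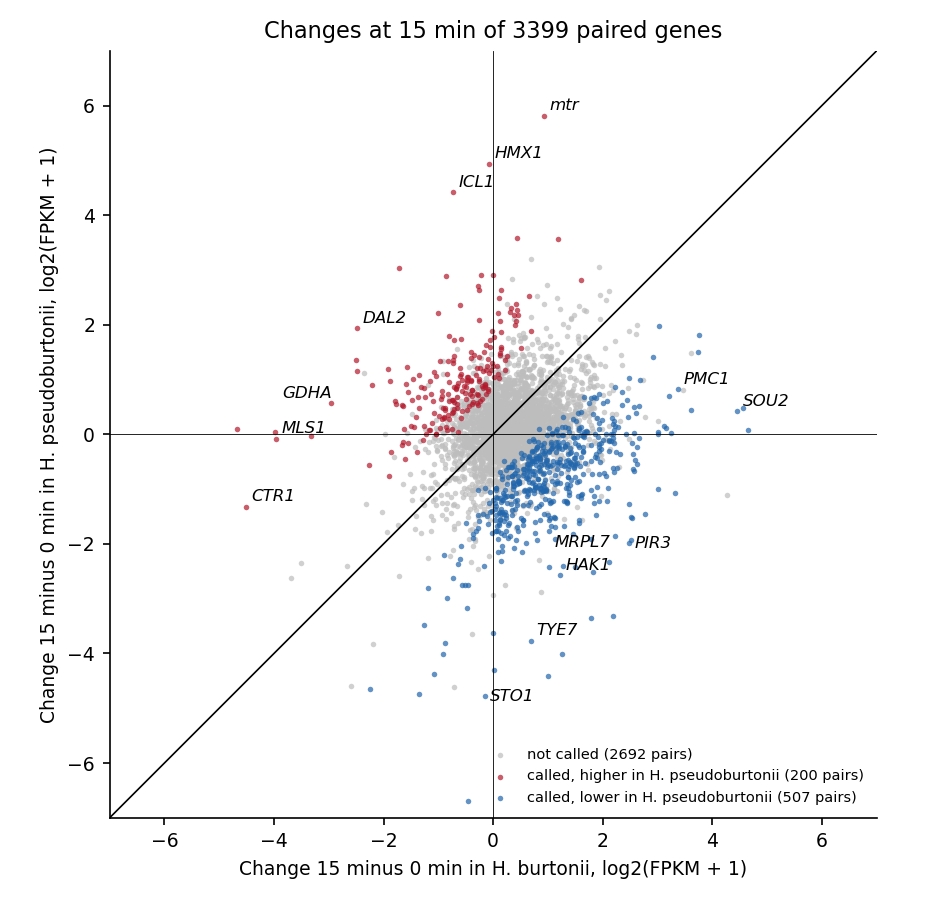
Changes between 0 and 15 min of 3399 paired genes, H. pseudoburtonii on the vertical axis and H. burtonii on the horizontal axis, both in log2(FPKM + 1), with equal change on the diagonal. Red points are the 200 pairs called higher in H. pseudoburtonii and blue points the 507 called lower, and the cloud shows little relation between the axes (Pearson r = 0.132).

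The balance of directions depended on the scale of the libraries. The median difference over all pairs was -0.33, with median changes of the paired genes of 0.08 in H. pseudoburtonii and 0.33 in H. burtonii, and it was -0.09 after median-ratio scaling and -0.0037 after quantile scaling within each species. The calls were 300 higher (8.83%) and 369 lower (10.9%) under median-ratio scaling and 296 higher (8.71%) and 296 lower (8.71%) under quantile scaling, and these are the shares against which scaled counts of a gene group are read. Called in the same direction under all 3 scalings were 197 higher and 286 lower pairs. Medians of gene groups are therefore given relative to the median of all pairs. Leaving out H. pseudoburtonii 0 min replicate 1 gave 122 higher and 285 lower calls, leaving out its replicate 2 gave 125 and 288, and leaving out H. burtonii 15 min replicate 2 gave 144 and 309. The calls left in every one of the 16 fits without 1 library were 89 higher and 240 lower.

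**Figure D2:**
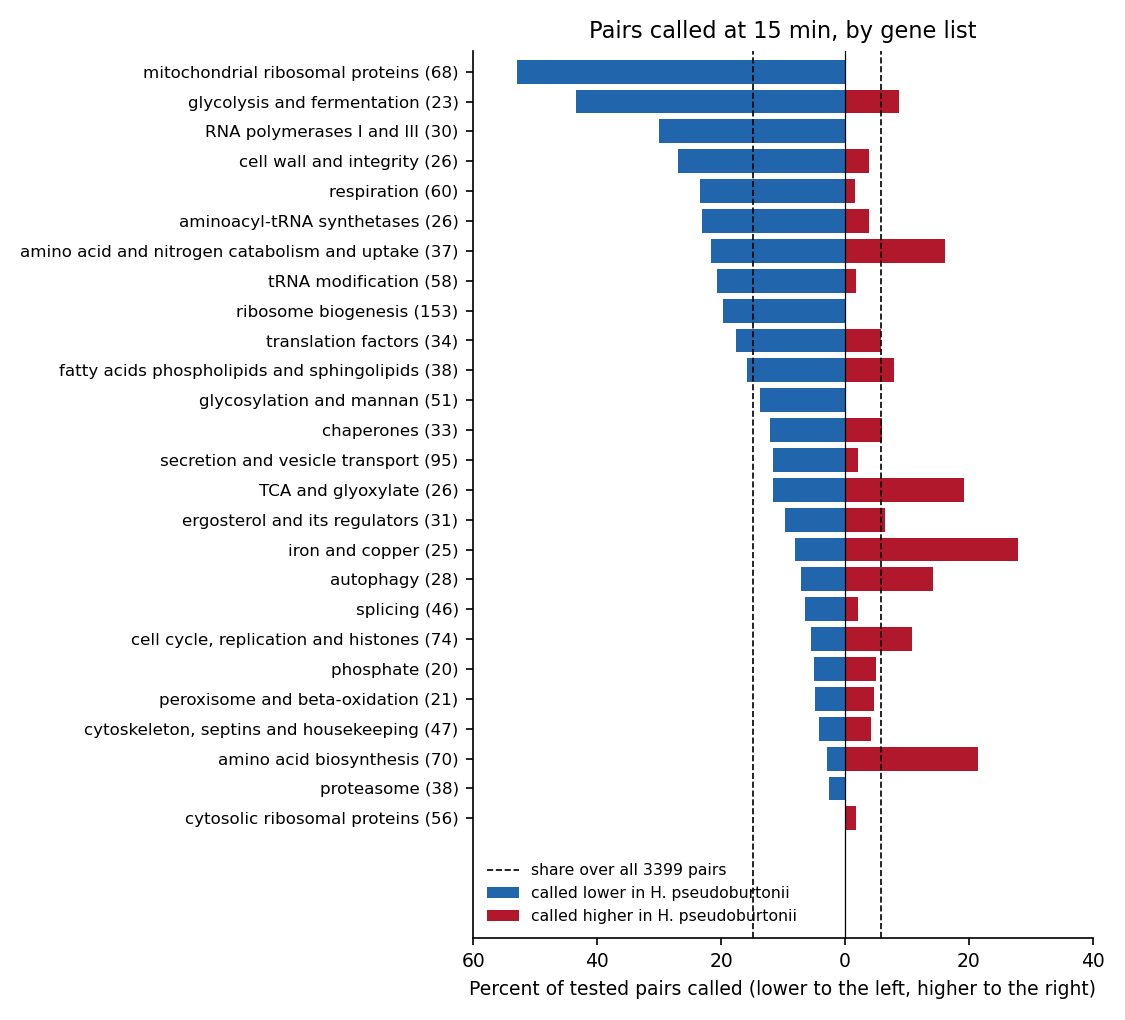
Share of tested pairs called lower (blue, to the left) and higher (red, to the right) in H. pseudoburtonii, for the gene lists with at least 20 tested pairs, with the number tested in brackets. Dashed lines mark the shares over all 3399 pairs, 14.9% lower and 5.88% higher. Mitochondrial ribosomal proteins reach furthest to the left, with 36 of 68 called lower.

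Proteins of the mitochondrial ribosome, which translates the few genes of the mitochondrial genome, had many lower calls. Of 68 pairs, 36 were called lower in H. pseudoburtonii (52.9%) and none higher (0 in limma, and 0 at an unadjusted p under 0.05), against 14.9% and 5.88% of all pairs, and the median difference was 1.04 below that of all pairs (-1.04). In H. pseudoburtonii 45 of them fell (66.2%, against 9% of all paired genes) and 1 rose, with a median change of -1.11. In H. burtonii 6 rose (8.82%, against 21.1%), none fell (0, and 6 at an unadjusted p under 0.05) and the median change was 0.227. The lower calls numbered 25 under median-ratio scaling (36.8%), 21 under quantile scaling (30.9%) and 22 without H. pseudoburtonii 0 min replicate 2. MRPL7, a protein of the large subunit (TBIG005433 in H. pseudoburtonii and TBIG003899 in H. burtonii), had 82.1 and 105 FPKM at 15 min and 322 and 314 FPKM at 0 min in H. pseudoburtonii, against 41.1 and 47.2 FPKM at 15 min and 22.1 and 20.1 FPKM at 0 min in H. burtonii. The libraries of 15 min lay below those of 0 min in H. pseudoburtonii and above them in H. burtonii, and the gene was called in both species. MRPL7 was among the pairs chosen for opposite calls, so its opposite directions follow from the choice. The difference was -2.79 ± 0.28 (SE, adjusted p = 0.000108). MRPL17, also of the large subunit, had 95.2 and 114 FPKM at 15 min and 217 and 254 FPKM at 0 min in H. pseudoburtonii, against 35.2 and 37.7 FPKM at 15 min and 8.5 and 15 FPKM at 0 min in H. burtonii. Again the groups did not overlap and moved in opposite directions, with a difference of -2.76 ± 0.42 (SE, adjusted p = 0.001). Most of the lower calls in the list came without a call in H. burtonii. Over all 68 pairs the differences ran between -3.89 and 0.939, and 64 were below 0. Mitochondrial genes outside that list were called as well. AIM41, a mitochondrial protein of little-known function, had 41.3 and 90 FPKM at 15 min and 235 and 237 FPKM at 0 min in H. pseudoburtonii, against 23.6 and 63.5 FPKM at 15 min and 7.28 and 4.92 FPKM at 0 min in H. burtonii. The gene fell in H. pseudoburtonii and rose in H. burtonii, with a difference of -4.44 ± 0.59 (SE, adjusted p = 0.000441). The genes of the pair span 573 bases in H. pseudoburtonii and 468 in H. burtonii and were paired by name. For mge1, the nucleotide exchange factor of the mitochondrial Hsp70 (named after fission yeast), the changes were -1.76 in H. pseudoburtonii and 0.06 in H. burtonii and the difference -1.82 ± 0.44 (SE, adjusted p = 0.0131).

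Respiration stood nearer to the shares of all pairs. Of 60 pairs, 14 were called lower (23.3%, against 14.9%) and 1 higher (1.67%, against 5.88%). In H. pseudoburtonii 17 fell (28.3%, against 9% of all paired genes) and 1 rose, and in H. burtonii 9 fell (15%, against 6.18%) and 4 rose. The median difference was 0.23 below all pairs (-0.231). The lower calls were COX10, COX11, COX15, COX18, SCO1, CBP3, OXA1, ATP11, ATP12, MSS51, COQ1, COQ8, HAP5 and the alternative oxidase STO1. Subunits such as QCR2, COX4, COX6, ATP1 and ATP2 had no call, and the higher call was nuo-51, a subunit of NADH-ubiquinone oxidoreductase. ATP12, which helps to assemble the F1 part of ATP synthase, had 78.2 and 107 FPKM at 15 min and 228 and 222 FPKM at 0 min in H. pseudoburtonii, against 47.7 and 47.6 FPKM at 15 min and 37.8 and 32.7 FPKM at 0 min in H. burtonii. Only the libraries of H. pseudoburtonii gave a call, and the difference was -1.72 ± 0.25 (SE, adjusted p = 0.000834). Under either scaling this group had 8 lower calls (13.3%), against 10.9% and 8.71% of all pairs, and 4 higher (6.67%), against 8.83% and 8.71%. Its lower calls numbered 8, 8 and 7 without H. burtonii 15 min replicate 2, H. pseudoburtonii 0 min replicate 1 and H. pseudoburtonii 0 min replicate 2.

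**Figure D3:**
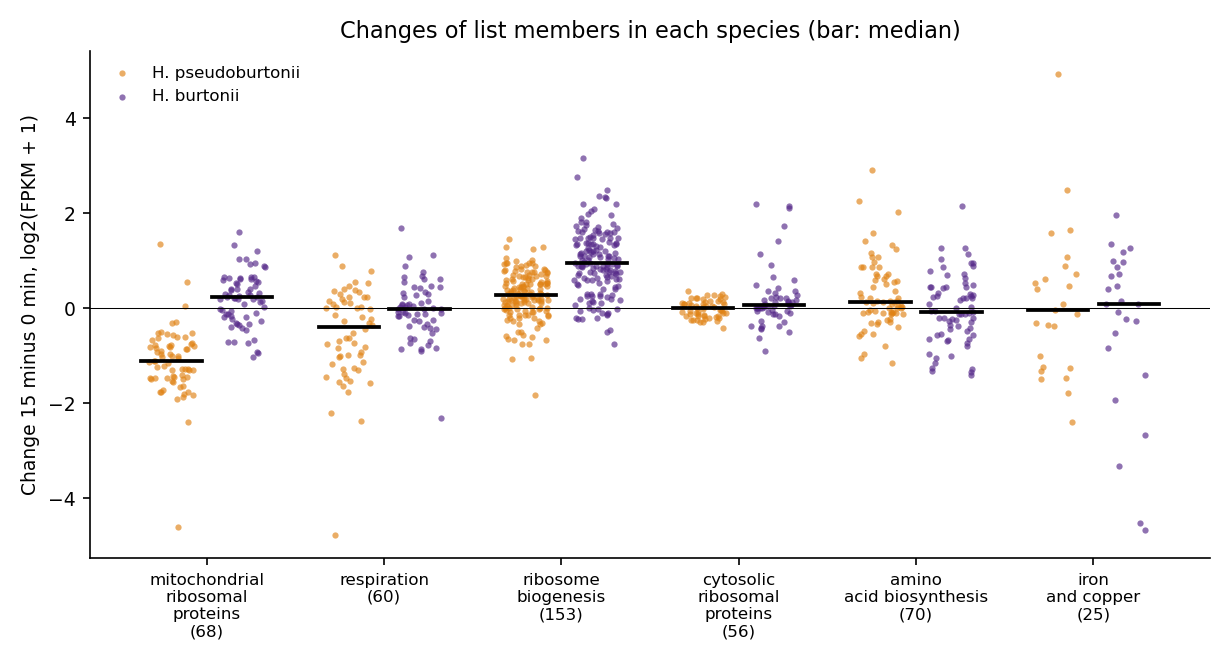
Changes between 0 and 15 min, in log2(FPKM + 1), of every tested member of 6 gene lists, with H. pseudoburtonii (orange) left of H. burtonii (violet) and a bar at each median. The mitochondrial ribosomal proteins centre on -1.11 in H. pseudoburtonii and 0.227 in H. burtonii, and ribosome biogenesis on 0.27 and 0.952.

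Among genes that make cytosolic ribosomes the calls within a species were mostly rises, and more of them in H. burtonii. Of 153 ribosome biogenesis pairs, 18 rose (11.8%, against 9.09% of all paired genes) and 4 fell in H. pseudoburtonii, with a median change of 0.27, while 68 rose (44.4%, against 21.1%) and none fell (0, also at an unadjusted p under 0.05) in H. burtonii, with a median of 0.952. The H. burtonii rises were 33 (21.6%, against 9.53%) under median-ratio and 20 (13.1%, against 7.62%) under quantile scaling. The species difference was called lower for 30 (19.6%, against 14.9% of all pairs) and higher for none (0 in limma, and 2 at an unadjusted p under 0.05), with a median difference 0.41 below all pairs (-0.414). Under median-ratio scaling the counts were 23 lower (15%, against 10.9%) and 1 higher, and under quantile scaling 11 lower (7.19%, below the 8.71% of all pairs) and 3 higher. With 1 library left out the lower calls numbered between 15, without H. pseudoburtonii 0 min replicate 1, and 48, without H. burtonii 15 min replicate 1. Without H. burtonii 15 min replicate 2 they were 16 and without H. pseudoburtonii 0 min replicate 2 they were 17. RRP42, a subunit of the RNA exosome, had 18.7 and 49.2 FPKM at 15 min and 105 and 115 FPKM at 0 min in H. pseudoburtonii, against 66.5 and 74.4 FPKM at 15 min and 23.8 and 26.2 FPKM at 0 min in H. burtonii. RRP42 fell in H. pseudoburtonii and rose in H. burtonii, and the difference was -3.28 ± 0.47 (SE, adjusted p = 0.000677). SDO1, which frees new large subunits for translation, had 113 and 85.4 FPKM at 15 min and 214 and 192 FPKM at 0 min in H. pseudoburtonii, against 186 and 171 FPKM at 15 min and 90 and 98.3 FPKM at 0 min in H. burtonii. It too was called in opposite directions, with a difference of -1.95 ± 0.29 (SE, adjusted p = 0.000955). Since 4 of the 153 pairs fell in H. pseudoburtonii, RRP42 and SDO1 are not typical of the lower calls in this list. NIP7, needed for the large subunit, was chosen after its values were seen and had log2 changes of 0.11 in H. pseudoburtonii and 3.16 in H. burtonii, a difference of -3.05 ± 0.69 (SE, adjusted p = 0.00967).

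The machinery for transfer RNA and ribosomal RNA also held lower calls, at shares that depended on the scaling. Of 58 tRNA modification and processing pairs, 12 were called lower (20.7%, against 14.9%) and 1 higher, and the lower calls were 11 under median-ratio (19%, against 10.9%) and 7 under quantile scaling (12.1%, against 8.71%). Rises were called for 5 in H. pseudoburtonii (8.62%, against 9.09% of all paired genes) and 25 in H. burtonii (43.1%, against 21.1%), and the H. burtonii rises were 13 (22.4%, against 9.53%) under median-ratio and 4 (6.9%, against 7.62%) under quantile scaling. LOS1, the exporter of tRNA from the nucleus, had 53.2 and 64.4 FPKM at 15 min and 93.4 and 93 FPKM at 0 min in H. pseudoburtonii, against 20.6 and 16.5 FPKM at 15 min and 1.11 and 4.12 FPKM at 0 min in H. burtonii. The H. burtonii libraries separated by time and were called as rising, those of H. pseudoburtonii were not called, and the difference was -3.23 ± 0.52 (SE, adjusted p = 0.00153). Of 30 subunits and factors of RNA polymerases I and III, 9 were called lower (30%) and none higher (0 in limma, and 1 at an unadjusted p under 0.05), and 2 rose in H. pseudoburtonii (6.67%) against 10 in H. burtonii (33.3%). Under median-ratio scaling 7 were lower (23.3%) and 3 rose in H. burtonii (10%), and under quantile scaling 4 were lower (13.3%) and 1 rose (3.33%). The lower calls were 5, 2, 3, 4 and 4 without H. burtonii 0 min replicate 2, H. burtonii 15 min replicate 2, H. pseudoburtonii 0 min replicates 1 and 2, and H. pseudoburtonii 15 min replicate 1. RPC82, a subunit of polymerase III, had 18.9 and 17 FPKM at 15 min and 23.4 and 28.7 FPKM at 0 min in H. pseudoburtonii, against 5.38 and 13.3 FPKM at 15 min and 1.93 and 1.09 FPKM at 0 min in H. burtonii, low values throughout in H. burtonii, and a difference of -2.46 ± 0.52 (SE, adjusted p = 0.00657). RPC17 was listed at 0 in one H. pseudoburtonii library of 15 min and at 50.8 FPKM in the other, and its difference of -5.5 ± 1.82 (SE, adjusted p = 0.0499) was called in 2 of 16 fits without 1 library.

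Cytosolic ribosomal proteins themselves had few calls. Of 56 pairs 1 was called higher and none lower (0 in limma, and 1 at an unadjusted p under 0.05), with no call within H. pseudoburtonii (0, and 1 rise at an unadjusted p under 0.05) and 1 fall in H. burtonii. In H. pseudoburtonii their changes stayed between -0.423 and 0.364, with a median of 0.00026, and in H. burtonii they ran between -0.906 and 2.19, with a median of 0.0687. The fits without H. burtonii 0 min replicate 2 and without H. burtonii 15 min replicate 1 gave 6 and 1 lower calls, and either scaling gave 2 higher ones. RPL5, a protein of the large subunit that carries 5S RNA, was the called pair and had 7006 and 6954 FPKM at 15 min and 5706 and 5684 FPKM at 0 min in H. pseudoburtonii, against 1135 and 1051 FPKM at 15 min and 2405 and 1741 FPKM at 0 min in H. burtonii. A fall was called in H. burtonii and none in H. pseudoburtonii, and the difference was 1.2 ± 0.23 (SE, adjusted p = 0.00435).

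Carbon metabolism held the highest called difference of all pairs, that of ICL1 in the glyoxylate shunt, which lets yeast build sugars from acetate and other compounds of 2 carbons and is shut off by glucose in S. cerevisiae. ICL1, isocitrate lyase, the first step of the shunt (chromosome 5, 1089648 to 1091303, in H. pseudoburtonii and chromosome 3, 1471637 to 1473292, in H. burtonii), had 25.2 and 16.5 FPKM at 15 min and 0 and 0 FPKM at 0 min in H. pseudoburtonii, against 976 and 643 FPKM at 15 min and 1428 and 1224 FPKM at 0 min in H. burtonii. It was listed at 0 in both H. pseudoburtonii libraries of 0 min and was detected in both of 15 min, while the H. burtonii libraries of 15 min lay below those of 0 min without a call (adjusted p = 0.0627). The difference of 5.16 ± 1.05 (SE, adjusted p = 0.00568) depends on the added 1 FPKM and is not a fold change. MLS1, malate synthase, the second step, had 44.9 and 57.9 FPKM at 15 min and 51.9 and 56.2 FPKM at 0 min in H. pseudoburtonii, against 20 and 21.2 FPKM at 15 min and 283 and 397 FPKM at 0 min in H. burtonii. Here the difference of 3.88 ± 0.41 (SE, adjusted p = 0.000126) came with a fall in H. burtonii, and the H. pseudoburtonii libraries of the 2 times overlapped. SFC1, the mitochondrial carrier that exchanges succinate for fumarate, had 16.5 and 10.6 FPKM at 15 min and 0 and 2.68 FPKM at 0 min in H. pseudoburtonii, against 119 and 112 FPKM at 15 min and 207 and 212 FPKM at 0 min in H. burtonii. It rose in H. pseudoburtonii, with 1 library of 0 min at 0, fell in H. burtonii, and differed by 3.74 ± 0.89 (SE, adjusted p = 0.0123). ACS1 and ACH1, which make and transfer the acetyl group of acetyl-CoA, were chosen after their values were seen and differed by 2.81 ± 0.39 (SE, adjusted p = 0.000614) and 1.71 ± 0.24 (SE, adjusted p = 0.000677). In the list of 26 TCA and glyoxylate pairs 5 were called higher and 3 lower, against 5.88% and 14.9% of all pairs, and the 5 are those just named. Either scaling gave 6 higher and 2 lower, and the lower calls were 5 without H. pseudoburtonii 15 min replicate 2. MAE1, malic enzyme, went the other way with 65.7 and 79.8 FPKM at 15 min and 489.6 and 501 FPKM at 0 min in H. pseudoburtonii, against 711 and 574 FPKM at 15 min and 929 and 890.3 FPKM at 0 min in H. burtonii. A fall was called in H. pseudoburtonii and none in H. burtonii, with a difference of -2.25 ± 0.26 (SE, adjusted p = 0.000194).

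Glycolysis and fermentation had 10 lower (43.5%, against 14.9% of all pairs) and 2 higher calls among 23 pairs. The lower calls were TYE7, PDC2, PDC1, PFK27, ADH2, PDC11, ADH6, FBP1, GAL4 and PFK26, and the higher ones GLK1 and ADH3. No call was made for the glycolytic enzymes PGI1, PFK1, FBA1, TPI1, PGK1, GPM1, ENO2 and PYK1. Their differences ran between -0.63 and 0.748. In the list, 13 fell in H. pseudoburtonii (56.5%, against 9% of all paired genes) and 10 in H. burtonii (43.5%, against 6.18%). None rose in H. pseudoburtonii (0, also at an unadjusted p under 0.05) against 5 in H. burtonii (21.7%, against 21.1%). The lower calls were 9 and the higher 4 under either scaling, and the lower calls were at least 7 in the 16 fits without 1 library. TYE7, an activator of glycolytic genes, had 115 and 241 FPKM at 15 min and 2253 and 2309.9 FPKM at 0 min in H. pseudoburtonii, against 487 and 1273 FPKM at 15 min and 289 and 819.6 FPKM at 0 min in H. burtonii. The H. pseudoburtonii libraries of 15 min lay far below those of 0 min, and the H. burtonii libraries overlapped between times. The difference was -4.46 ± 0.69 (SE, adjusted p = 0.00119). PDC11, pyruvate decarboxylase, which leads to ethanol, had 829 and 1156 FPKM at 15 min and 10909.6 and 10905 FPKM at 0 min in H. pseudoburtonii, against 2707 and 3657 FPKM at 15 min and 6640.0 and 8558 FPKM at 0 min in H. burtonii. It fell in both species and further in H. pseudoburtonii, by -2.22 ± 0.33 (SE, adjusted p = 0.000834). PDC1, another pyruvate decarboxylase gene by its name, was chosen after its values were seen, had log2 changes of -0.32 in H. pseudoburtonii and 2.24 in H. burtonii and differed by -2.56 ± 0.52 (SE, adjusted p = 0.00568). ADH6, an NADP-dependent alcohol dehydrogenase, rose in H. burtonii (2.19) with no call in H. pseudoburtonii (0.19), a difference of -2.0 ± 0.24 (SE, adjusted p = 0.000259). KHT2, a hexose transporter outside the list, fell in H. pseudoburtonii (-1.56) and rose in H. burtonii (0.54), a difference of -2.1 ± 0.28 (SE, adjusted p = 0.00044). Copies of glycolytic enzymes that share an accession within a species are not among the pairs.

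STO1 encodes the alternative oxidase, which passes electrons to oxygen without the later complexes of the respiratory chain. It had 34.4 and 96.8 FPKM at 15 min and 1575 and 1643 FPKM at 0 min in H. pseudoburtonii, against 1534 and 2213 FPKM at 15 min and 2020.4 and 2077 FPKM at 0 min in H. burtonii. In H. pseudoburtonii both libraries of 15 min lay far below both of 0 min, and in H. burtonii the times overlapped. The difference was -4.62 ± 0.53 (SE, adjusted p = 0.000183). YHB1, the flavohaemoglobin that removes nitric oxide, had 19 and 20.2 FPKM at 15 min and 489 and 538 FPKM at 0 min in H. pseudoburtonii, against 403 and 396 FPKM at 15 min and 2051 and 1770.4 FPKM at 0 min in H. burtonii. It fell in both species, further in H. pseudoburtonii, and differed by -2.39 ± 0.30 (SE, adjusted p = 0.000292), in a pair whose genes span 1233 bases in H. pseudoburtonii and 708 in H. burtonii. The gene named sre1, after the fission yeast factor that answers to low sterol and low oxygen, had 23.9 and 23.3 FPKM at 15 min and 388 and 407 FPKM at 0 min in H. pseudoburtonii, against 175 and 263 FPKM at 15 min and 408 and 397 FPKM at 0 min in H. burtonii. It also fell in both species and differed by -3.11 ± 0.30 (SE, adjusted p = 0.000102).

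Nitrogen assimilation and amino acid synthesis had mostly higher calls. Of 70 amino acid biosynthesis pairs 15 were called higher and 2 lower, against 5.88% and 14.9% of all pairs, and the median difference was 0.54 above all pairs (0.543). In H. pseudoburtonii 18 rose (25.7%, against 9.09% of all paired genes) and 4 fell (5.71%, against 9%). In H. burtonii 6 rose (8.57%, against 21.1%) and 15 fell (21.4%, against 6.18%). The higher calls were 16 and 18 under median-ratio and quantile scaling and between 11 and 15 in the fits without 1 library. GDHA, the NADP-dependent glutamate dehydrogenase that fixes ammonium, is outside the list. It had 175 and 229 FPKM at 15 min and 119.6 and 152 FPKM at 0 min in H. pseudoburtonii, against 67.2 and 60.8 FPKM at 15 min and 491 and 514 FPKM at 0 min in H. burtonii. The H. burtonii libraries fell with no overlap, those of H. pseudoburtonii gave no call, and the difference was 3.52 ± 0.33 (SE, adjusted p = 9.55e-05). GLN1, glutamine synthetase, had 1177 and 1123 FPKM at 15 min and 601 and 661 FPKM at 0 min in H. pseudoburtonii, against 992 and 671 FPKM at 15 min and 2132 and 1964 FPKM at 0 min in H. burtonii. It rose in H. pseudoburtonii and fell in H. burtonii, a difference of 2.19 ± 0.27 (SE, adjusted p = 0.000265). ALT1, alanine aminotransferase, had 119 and 115 FPKM at 15 min and 48 and 44.1 FPKM at 0 min in H. pseudoburtonii, against 115 and 117 FPKM at 15 min and 206 and 251 FPKM at 0 min in H. burtonii, also with opposite calls, and differed by 2.29 ± 0.25 (SE, adjusted p = 0.000133). GLT1, glutamate synthase, chosen after its values were seen, differed by 2.44 ± 0.39 (SE, adjusted p = 0.00153).

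Uptake and breakdown of nitrogen compounds split in both directions, with 6 higher (16.2%, against 5.88%) and 8 lower calls (21.6%, against 14.9%) among 37 pairs. Median-ratio scaling gave 7 and 6 and quantile scaling 7 and 5. Without H. pseudoburtonii 0 min replicate 1 the higher calls were 3, and without its replicate 2 the lower calls were 5. DAL2, allantoicase, which breaks down a purine product, had 76.5 and 66.1 FPKM at 15 min and 19.8 and 16.1 FPKM at 0 min in H. pseudoburtonii, against 29.6 and 28.7 FPKM at 15 min and 174 and 161 FPKM at 0 min in H. burtonii. All 4 groups stood apart within their species, rising in H. pseudoburtonii and falling in H. burtonii, with a difference of 4.42 ± 0.40 (SE, adjusted p = 9.55e-05). The gene named mtr, after the neutral amino acid permease of Neurospora crassa, is outside the list and had 96.2 and 116 FPKM at 15 min and 0 and 2.58 FPKM at 0 min in H. pseudoburtonii, against 70.5 and 90.7 FPKM at 15 min and 44.8 and 38.9 FPKM at 0 min in H. burtonii. It rose in both species, in H. pseudoburtonii against 1 library at 0, with a difference of 4.9 ± 0.62 (SE, adjusted p = 0.000301). CAN1, an arginine permease chosen after its values were seen, differed by 2.97 ± 0.39 (SE, adjusted p = 0.0004). On the lower side GAD1, glutamate decarboxylase, the first step to GABA, had 20 and 30.7 FPKM at 15 min and 19.7 and 31 FPKM at 0 min in H. pseudoburtonii, against 209 and 246 FPKM at 15 min and 22.9 and 32.6 FPKM at 0 min in H. burtonii. The libraries rose with no overlap in H. burtonii and overlapped in H. pseudoburtonii, and the difference was -3.0 ± 0.40 (SE, adjusted p = 0.0004). UGA1, which breaks GABA down, was chosen after its values were seen and had log2 changes of 0.01 in H. pseudoburtonii and 2.19 in H. burtonii, a difference of -2.18 ± 0.34 (SE, adjusted p = 0.00127).

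The list of copper and iron genes had 7 higher calls among 25 pairs (28%, against 5.88% of all pairs) and 2 lower. This list also holds genes for zinc and manganese. By their descriptions, both lower calls are of that kind, the zinc-responsive regulator ZAP1 and the manganese transporter SMF1. Among the higher calls, SMF2 is a manganese transporter. The higher calls were 10 under median-ratio (40%, against 8.83%) and 9 under quantile scaling (36%, against 8.71%), and 4 without H. pseudoburtonii 0 min replicate 1. CTR1, a copper importer of the plasma membrane, had 144 and 102 FPKM at 15 min and 276 and 333 FPKM at 0 min in H. pseudoburtonii, against 54.9 and 64.9 FPKM at 15 min and 1139.5 and 1691 FPKM at 0 min in H. burtonii. It fell in both species and further in H. burtonii, which gives the difference of 3.2 ± 0.39 (SE, adjusted p = 0.000259). CTR3, another copper importer, had 19.6 and 4.48 FPKM at 15 min and 7.05 and 11.3 FPKM at 0 min in H. pseudoburtonii, against 2.27 and 5.63 FPKM at 15 min and 47.7 and 292 FPKM at 0 min in H. burtonii. Its libraries spread widely, the H. burtonii fall was called, and the difference of 4.78 ± 1.17 (SE, adjusted p = 0.0139) was called in 14 of 16 fits without 1 library. FRE7, a reductase that prepares copper and iron for uptake, had 146 and 172 FPKM at 15 min and 163 and 162 FPKM at 0 min in H. pseudoburtonii, against 30.7 and 30.7 FPKM at 15 min and 239 and 421 FPKM at 0 min in H. burtonii. Here H. pseudoburtonii showed no call while H. burtonii fell, a difference of 3.3 ± 0.41 (SE, adjusted p = 0.000265). HMX1, a haem oxygenase that frees iron from haem, had 347 and 576 FPKM at 15 min and 11.6 and 15.9 FPKM at 0 min in H. pseudoburtonii, against 95.5 and 197 FPKM at 15 min and 115 and 183 FPKM at 0 min in H. burtonii. The H. pseudoburtonii libraries rose with no overlap, those of H. burtonii overlapped, and the difference was 5.02 ± 0.50 (SE, adjusted p = 0.000108).

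**Figure D4:**
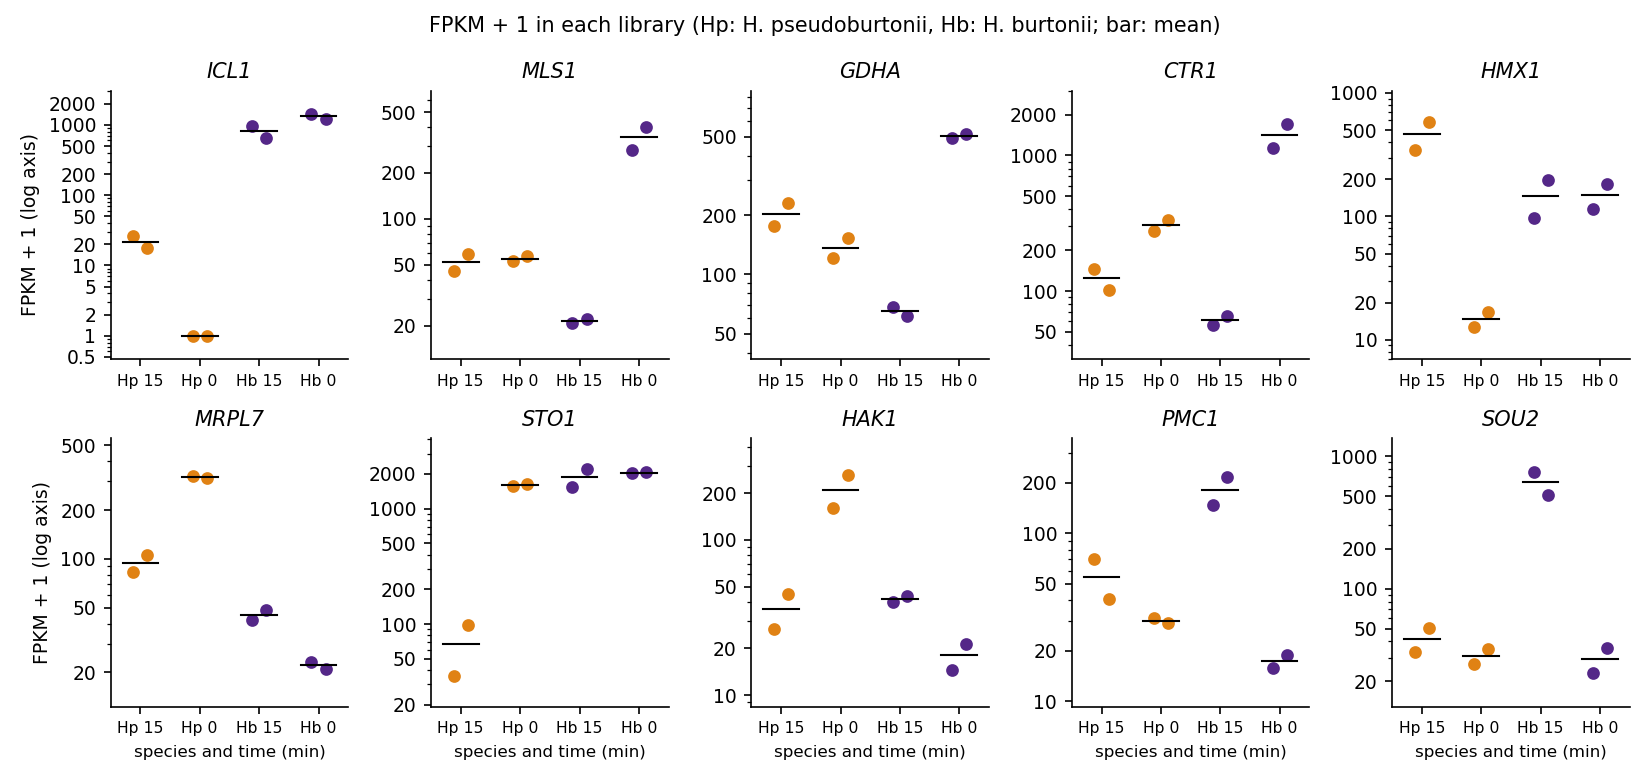
FPKM + 1 on a log axis in each library for 10 pairs, with the 2 libraries of a group as points and their mean as a bar, H. pseudoburtonii (orange) left of H. burtonii (violet) and 15 min left of 0 min. STO1 falls in H. pseudoburtonii while its H. burtonii libraries overlap between times, and PMC1 and SOU2 rise in H. burtonii.

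Lipid synthesis held called pairs of both directions. ACC1, FAS2 and ERG6, given below with their values, were higher calls, and the lower ones are named with the counts. ACC1, acetyl-CoA carboxylase, which makes the building block of fatty acids, had 477 and 392 FPKM at 15 min and 304 and 293 FPKM at 0 min in H. pseudoburtonii, against 89.8 and 89.6 FPKM at 15 min and 267 and 308 FPKM at 0 min in H. burtonii. ACC1 fell in H. burtonii, was not called in H. pseudoburtonii (adjusted p = 0.0541), and differed by 2.2 ± 0.27 (SE, adjusted p = 0.000259). FAS2, a subunit of fatty acid synthase, had 577 and 428 FPKM at 15 min and 321 and 301 FPKM at 0 min in H. pseudoburtonii, against 421 and 389 FPKM at 15 min and 965 and 953 FPKM at 0 min in H. burtonii. FAS2 rose in H. pseudoburtonii and fell in H. burtonii, a difference of 1.92 ± 0.28 (SE, adjusted p = 0.000739). Of 38 pairs of the lipid list, 3 were called higher (7.89%, against 5.88% of all pairs) and 6 lower (15.8%, against 14.9%), near the shares of all pairs. The lower calls of this list were LCB4, TGL3, SUR1, ALE1, LCB1 and SCS7. The counts were 4 and 6 under median-ratio and 4 and 5 under quantile scaling. Without H. burtonii 15 min replicate 2 the lower calls were 3 and without H. burtonii 0 min replicate 2 they were 10. ERG6, a late step of ergosterol synthesis, had log2 changes of 0.39 in H. pseudoburtonii and -1.08 in H. burtonii and differed by 1.47 ± 0.24 (SE, adjusted p = 0.00172). It was 1 of 2 higher calls, beside 3 lower, among 31 ergosterol pairs (16.1% in all, against 20.8%). The lower ergosterol calls were ERG25 (TBIG004685), sre1 and ERG8. The ergosterol counts were 3 higher and 3 lower under median-ratio and 2 and 2 under quantile scaling, and with 1 library left out 1 to 3 were higher and 2 to 5 lower, with 5 lower without H. burtonii 0 min replicate 2 and 1 higher without H. burtonii 15 min replicate 2.

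Genes for ion transport had calls in both directions. In the list of sodium, potassium and proton transport 2 of 11 pairs were called lower (18.2%, against 14.9% of all pairs) and 1 higher (9.09%, against 5.88%). In this list 7 differences were above 0, and the median was 0.66 above all pairs (0.657). Median-ratio scaling gave 2 lower and 1 higher and quantile scaling 2 and 2, and the lower calls were 1 without H. pseudoburtonii 0 min replicate 1. HAK1, a high-affinity potassium importer, had 25.5 and 43.9 FPKM at 15 min and 159.5 and 261 FPKM at 0 min in H. pseudoburtonii, against 38.6 and 42.5 FPKM at 15 min and 13.6 and 20.5 FPKM at 0 min in H. burtonii. The times did not overlap in either species, with a fall in H. pseudoburtonii and a rise in H. burtonii, and the difference was -3.8 ± 0.72 (SE, adjusted p = 0.00374). PMC1, the pump that stores calcium in the vacuole and is a known target of calcineurin, had 69 and 39.3 FPKM at 15 min and 30.2 and 28.1 FPKM at 0 min in H. pseudoburtonii, against 147 and 215 FPKM at 15 min and 14.8 and 18 FPKM at 0 min in H. burtonii. A rise was called in H. burtonii and not in H. pseudoburtonii, and the difference was -2.55 ± 0.38 (SE, adjusted p = 0.000976). The gene named cmk1, a calcium and calmodulin-dependent kinase, had 13.1 and 14.2 FPKM at 15 min and 54.8 and 67.6 FPKM at 0 min in H. pseudoburtonii, against 769 and 699.6 FPKM at 15 min and 622 and 509.7 FPKM at 0 min in H. burtonii. It fell in H. pseudoburtonii with no call in H. burtonii, a difference of -2.46 ± 0.25 (SE, adjusted p = 0.000108). In the calcineurin and calcium list 4 of 13 pairs were called lower (30.8%, against 14.9% of all pairs) and none higher (0 in limma, also at an unadjusted p under 0.05). None rose in H. pseudoburtonii (0, and 3 at an unadjusted p under 0.05) and 6 rose in H. burtonii (46.2%, against 21.1% of all paired genes). The lower calls were 4 under both scalings. PPZ1, a phosphatase that restrains potassium uptake, was called higher at 1.39 ± 0.25 (SE, adjusted p = 0.00273), in a pair whose genes span 1953 bases in H. pseudoburtonii and 432 in H. burtonii. Outside these lists, ALR2, a magnesium importer, had 0 and 12.5 FPKM at 15 min and 66.6 and 88.3 FPKM at 0 min in H. pseudoburtonii, against 19 and 23.7 FPKM at 15 min and 9.83 and 10.5 FPKM at 0 min in H. burtonii, with 1 library at 0, and a difference of -5.4 ± 1.13 (SE, adjusted p = 0.00642). Its genes span 1299 bases in H. pseudoburtonii and 2676 in H. burtonii. VMA21, also outside them, helps to assemble the vacuolar proton pump and had 0 and 0 FPKM at 15 min and 83.5 and 124 FPKM at 0 min in H. pseudoburtonii, against 116 and 182 FPKM at 15 min and 222 and 181 FPKM at 0 min in H. burtonii. Its difference of -6.22 ± 2.02 (SE, adjusted p = 0.0468) rests on 2 libraries listed at 0 and was called in 2 of 16 fits without 1 library.

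The Hog1 cascade and its targets had no larger share of calls than all pairs, 18.8% against 20.8%. Of 16 pairs in the Hog1 list 5 rose in H. pseudoburtonii (31.2%, against 9.09% of all paired genes) and 7 in H. burtonii (43.8%, against 21.1%). None fell in either (0 in both, and 0 and 1 at an unadjusted p under 0.05). The H. burtonii rises were 3 (18.8%, against 9.53%) under median-ratio and 2 (12.5%, against 7.62%) under quantile scaling, with 1 fall under each. Those of H. pseudoburtonii were 4 (25%, against 6.88%) and 5 (31.2%, against 7.68%). The species difference was called higher for 1 pair and lower for 2. The lower calls were 2 under median-ratio and 1 under quantile scaling, 0 without H. burtonii 15 min replicate 2, 0 without H. pseudoburtonii 0 min replicate 1 and 4 without H. pseudoburtonii 15 min replicate 2. PBS2, the kinase just above Hog1, had 64.2 and 55.5 FPKM at 15 min and 83 and 71.2 FPKM at 0 min in H. pseudoburtonii, against 6.19 and 14.6 FPKM at 15 min and 2.78 and 2.61 FPKM at 0 min in H. burtonii. It rose in H. burtonii at low FPKM with no call in H. pseudoburtonii, and its difference of -1.88 ± 0.50 (SE, adjusted p = 0.02) had an adjusted p of 0.0981 under quantile scaling and was called in 14 of 16 fits without 1 library. HOT1, a transcription factor bound by Hog1, differed by -2.13 ± 0.52 (SE, adjusted p = 0.014) and was called in 14 of 16 such fits. MSN4, a general stress factor, had 8.52 and 8.77 FPKM at 15 min and 2.73 and 2.88 FPKM at 0 min in H. pseudoburtonii, against 19 and 24.9 FPKM at 15 min and 33.6 and 45.6 FPKM at 0 min in H. burtonii. It rose in H. pseudoburtonii, was not called in H. burtonii (adjusted p = 0.0516), and differed by 2.16 ± 0.41 (SE, adjusted p = 0.00369), in a pair whose genes span 2895 bases in H. pseudoburtonii and 1653 in H. burtonii. HOG1 itself had 43.2 and 70.1 FPKM at 15 min and 67.1 and 69.9 FPKM at 0 min in H. pseudoburtonii, against 252 and 307 FPKM at 15 min and 163 and 193 FPKM at 0 min in H. burtonii. Its difference of -0.96 ± 0.36 (SE, adjusted p = 0.0747) was not called, with a 95% interval of -1.73 to -0.18.

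Genes for compatible solutes and stress protection had called differences in both directions. In the list of sugar alcohols and pentoses 2 of 7 pairs were lower (28.6%, against 14.9% of all pairs) and 1 higher (14.3%, against 5.88%), with the same counts under both scalings. SOU2, named after a sorbose reductase of C. albicans, a family that acts on sugar alcohols, had 32.5 and 49.3 FPKM at 15 min and 25.9 and 34.1 FPKM at 0 min in H. pseudoburtonii, against 764 and 512 FPKM at 15 min and 21.9 and 34.8 FPKM at 0 min in H. burtonii. In H. burtonii both libraries of 15 min lay far above both of 0 min, while in H. pseudoburtonii the times overlapped. The difference was -4.03 ± 0.44 (SE, adjusted p = 0.000144). XYL2, xylitol dehydrogenase, was chosen after its values were seen, had log2 changes of 0.67 in H. pseudoburtonii and -1.37 in H. burtonii, and was called higher at 2.04 ± 0.47 (SE, adjusted p = 0.01). The gene named gut2, the mitochondrial glycerol-3-phosphate dehydrogenase that uses up the precursor of glycerol, had 182 and 252 FPKM at 15 min and 291 and 328 FPKM at 0 min in H. pseudoburtonii, against 459.7 and 610.3 FPKM at 15 min and 169 and 235 FPKM at 0 min in H. burtonii. A rise was called in H. burtonii alone, and the difference was -1.93 ± 0.39 (SE, adjusted p = 0.0056). GPD, the NAD-dependent enzyme that makes that precursor, fell in H. pseudoburtonii (-0.69) and was not called in H. burtonii (0.13), and its difference of -0.82 ± 0.27 (SE, adjusted p = 0.0498) was called in 3 of 16 fits without 1 library and under neither scaling, with adjusted p of 0.185 and 0.112. CTT1, catalase, had 20.7 and 22.4 FPKM at 15 min and 4.2 and 7.01 FPKM at 0 min in H. pseudoburtonii, against 1763 and 1463 FPKM at 15 min and 126 and 109 FPKM at 0 min in H. burtonii. It rose in both species and more in H. burtonii, a difference of -1.96 ± 0.32 (SE, adjusted p = 0.00153). HSP12, a small membrane-protecting protein, had log2 changes of 0.68 in H. pseudoburtonii and 1.84 in H. burtonii, with a difference of -1.17 ± 0.37 (SE, adjusted p = 0.0437) that was called in 5 of 16 such fits and under neither scaling (0.144 and 0.101).

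Trehalose, a protective sugar, is made by TPS1 and TPS2 with the regulator TPS3. TPS2 had 129.9 and 85.9 FPKM at 15 min and 236 and 229 FPKM at 0 min in H. pseudoburtonii, against 219 and 288 FPKM at 15 min and 184 and 243 FPKM at 0 min in H. burtonii. It fell in H. pseudoburtonii, overlapped between times in H. burtonii, and differed by -1.38 ± 0.32 (SE, adjusted p = 0.0111). TPS3 fell in H. pseudoburtonii (-0.75) and rose in H. burtonii (0.77), a difference of -1.52 ± 0.33 (SE, adjusted p = 0.00735). TPS1 had log2 changes of -0.90 in H. pseudoburtonii and 0.43 in H. burtonii, and its difference of -1.34 ± 0.42 (SE, adjusted p = 0.0434) was called in 4 of 16 fits without 1 library and under neither scaling (0.0869 and 0.103). GPH1, glycogen phosphorylase, which breaks glycogen down, was chosen after its values were seen, had log2 changes of 0.10 in H. pseudoburtonii and -1.62 in H. burtonii, and was called higher at 1.72 ± 0.45 (SE, adjusted p = 0.0189). In the trehalose and glycogen list 3 of 8 pairs were lower (37.5%, against 14.9% of all pairs) and 1 higher (12.5%, against 5.88%). Yet 5 differences were above 0 and the median was 0.52 above all pairs (0.523). Either scaling gave 2 lower and 1 higher, and the higher call, that of GPH1, was made in 13 of 16 fits without 1 library. In a general stress list of 13 pairs 6 were called lower (46.2%, against 14.9% of all pairs) and 2 higher (15.4%, against 5.88%), MSN4 and TMA10. The list overlaps others above: the lower calls GAD1 and UGA1 are also in the list of nitrogen uptake and breakdown, STO1 in that of respiration, and MSN4 in the Hog1 list. The lower calls were 5 under median-ratio scaling, 4 under quantile scaling and at least 4 in the 16 fits without 1 library.

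Other osmotic stress genes gave no call, which does not show that the species act alike. The sensor SHO1 differed by -0.63 ± 0.53 (95% interval -1.77 to 0.51, adjusted p = 0.416), and the Hog1 phosphatase PTP3 by -0.13 ± 0.54 (-1.3 to 1.04, 0.884). GUT1, glycerol kinase, differed by -0.40 ± 0.24 (-0.93 to 0.12, 0.256). The sodium exporter NHA1 rose in both species, by 1.38 in H. pseudoburtonii and 0.74 in H. burtonii, and differed by 0.64 ± 0.36 (-0.15 to 1.42, 0.23). The proton pump PMA1 differed by 0.09 ± 0.25 (-0.46 to 0.64, 0.821). CNB1, the regulatory subunit of calcineurin, differed by 0.70 ± 0.42 (-0.21 to 1.61, 0.256). RCN1, which regulates calcineurin and is induced by it, rose in H. burtonii (1.54) and differed by -0.94 ± 0.34 (-1.68 to -0.19, 0.0713). HSP104, a disaggregase, differed by -1.38 ± 0.55 (-2.57 to -0.19, 0.093). ACT1, actin, differed by 0.30 ± 0.20 (-0.13 to 0.74, 0.304), and by an adjusted p of 0.0284 under quantile scaling. The interval of PTP3 spans a difference of 1 in both directions, whereas that of PMA1 does not reach 1 in either.

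Cell wall genes had 7 lower calls (26.9%, against 14.9% of all pairs) and 1 higher among 26 pairs, with 6 and 5 lower calls and 2 higher under median-ratio and quantile scaling. Yet the list's median difference was 0.23 above all pairs (0.233), with 15 members above the median of all pairs and 11 below it. PGA3, among the lower calls, is a reductase of the plasma membrane by its description. PIR3, a mannoprotein bound to the wall's glucan, had 32.7 and 22.4 FPKM at 15 min and 115 and 104 FPKM at 0 min in H. pseudoburtonii, against 701 and 532 FPKM at 15 min and 111 and 107 FPKM at 0 min in H. burtonii. It fell in H. pseudoburtonii and rose in H. burtonii, and the difference was -4.45 ± 0.63 (SE, adjusted p = 0.000677). GFA1, the first enzyme toward chitin, had 149.8 and 181 FPKM at 15 min and 519.7 and 464 FPKM at 0 min in H. pseudoburtonii, against 453 and 620.5 FPKM at 15 min and 202 and 334 FPKM at 0 min in H. burtonii. It too fell in H. pseudoburtonii and rose in H. burtonii, with a difference of -2.6 ± 0.33 (SE, adjusted p = 0.000301). CHT2, a chitinase, rose in H. pseudoburtonii and fell in H. burtonii, with 1449.9 and 1578 FPKM at 15 min and 698 and 632 FPKM at 0 min in H. pseudoburtonii, against 101 and 79.1 FPKM at 15 min and 375 and 312 FPKM at 0 min in H. burtonii, and a difference of 3.11 ± 0.29 (SE, adjusted p = 9.55e-05).

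Cell cycle and replication genes had 8 higher (10.8%, against 5.88%) and 4 lower calls (5.41%, against 14.9%) among 74 pairs, and a median difference 0.55 above all pairs (0.551). Median-ratio scaling gave 13 and 2 and quantile scaling 14 and 1. Without H. pseudoburtonii 0 min replicate 1 the lower calls were 1. POL30, the sliding clamp of replication, had 281 and 247 FPKM at 15 min and 107 and 119 FPKM at 0 min in H. pseudoburtonii, against 52.5 and 42.9 FPKM at 15 min and 53.1 and 60.1 FPKM at 0 min in H. burtonii. POL30 rose in H. pseudoburtonii with no call in H. burtonii, a difference of 1.46 ± 0.26 (SE, adjusted p = 0.00269). RFC2, a subunit of the clamp loader, rose in H. pseudoburtonii (0.74) and fell in H. burtonii (-0.83), a difference of 1.57 ± 0.32 (SE, adjusted p = 0.00542). PCL1 and PDE2, given next, are outside the list. PCL1, a cyclin of the Pho85 kinase, had 91.9 and 98.4 FPKM at 15 min and 14.6 and 26.8 FPKM at 0 min in H. pseudoburtonii, against 1.77 and 4.76 FPKM at 15 min and 4.17 and 11.5 FPKM at 0 min in H. burtonii, rose in H. pseudoburtonii and differed by 3.21 ± 0.63 (SE, adjusted p = 0.0047). PDE2, which breaks down cyclic AMP, had 10.8 and 8.06 FPKM at 15 min and 26.3 and 28.5 FPKM at 0 min in H. pseudoburtonii, against 23.8 and 39.8 FPKM at 15 min and 1.76 and 6.93 FPKM at 0 min in H. burtonii, rose in H. burtonii and differed by -4.22 ± 0.68 (SE, adjusted p = 0.00153).

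Some of the pairs with opposite calls have no known role. Q59L72_CANAL, named after a C. albicans protein, had 93.1 and 114 FPKM at 15 min and 351 and 399.7 FPKM at 0 min in H. pseudoburtonii, against 104 and 121 FPKM at 15 min and 27.4 and 19.6 FPKM at 0 min in H. burtonii, and a difference of -4.08 ± 0.32 (SE, adjusted p = 3.94e-05). YEP4_SCHPO, after a fission yeast protein of the Golgi membrane, had 36.7 and 29.5 FPKM at 15 min and 77.5 and 64 FPKM at 0 min in H. pseudoburtonii, against 38.4 and 62.4 FPKM at 15 min and 2.94 and 5.35 FPKM at 0 min in H. burtonii and a difference of -4.39 ± 0.44 (SE, adjusted p = 0.000108). YJ9S_YEAST, after an uncharacterized S. cerevisiae protein, had 0 and 0 FPKM at 15 min and 12.3 and 18.5 FPKM at 0 min in H. pseudoburtonii, against 22.2 and 21.3 FPKM at 15 min and 6 and 11.9 FPKM at 0 min in H. burtonii and a difference of -5.27 ± 0.54 (SE, adjusted p = 0.000108), which rests on zeros. In all 3 the libraries of the 2 times stood apart in both species, downward in H. pseudoburtonii and upward in H. burtonii. These pairs, like MRPL7, DAL2 and CHT2 above, were chosen for opposite calls, so their opposite directions follow from the choice.

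The differences at 15 min belong to a course that was not the same for all pairs. Against 0 min, 528 pairs were called at 5 min (15.5%), 267 higher (7.86%) and 261 lower (7.68%), 707 at 15 min, and 1227 at 30 min (36.1%), 436 higher (12.8%) and 791 lower (23.3%), and these comparisons share the 0 min libraries. STO1 differed by -6.77, -4.62 and -1.52 at 5, 15 and 30 min, TYE7 by -6.5, -4.46 and -2.31, and sre1 by -6.59, -3.11 and -0.19. In these 3 pairs the difference was larger in size at 5 min than at 15 or 30 min. PMC1 differed by -2.61 at 5 min, -2.55 at 15 min and 0.38 at 30 min (adjusted p = 0.474), and cmk1 by -3.6, -2.46 and 1.0. YHB1 ran from the negative to the positive side, with -4.42, -2.39 and 3.91 at the 3 times, and HSP104 did so with -3.34, -1.38 and 2.69. TMA10, which binds ribosomes in S. cerevisiae, had 489 and 379.8 FPKM at 15 min and 235 and 119.9 FPKM at 0 min in H. pseudoburtonii, against 849 and 1084 FPKM at 15 min and 5575 and 5321 FPKM at 0 min in H. burtonii. It fell in H. burtonii, was not called in H. pseudoburtonii, and differed by -2.19, 3.86 ± 0.55 and 8.67 at 5, 15 and 30 min. Other pairs grew with time: MRPL7 by -0.68, -2.79 and -3.76, HMX1 by 1.39, 5.02 and 8.26, and MLS1 by 2.79, 3.88 and 6.61. MSN4 likewise differed by 0.99, 2.16 and 4.63.

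The size of the change between 5 and 30 min is estimated from none of the 0 and 15 min libraries. Its p-values rest on the same estimate of spread, from all 16 libraries, as those at 15 min, so the calls are not independent. The species differed in this later change for 1247 pairs (36.7%), 450 higher (13.2%) and 797 lower (23.4%). Of the 707 pairs called at 15 min, 363 (51.3%, and 29.1% of the 1247) were called there too, 265 of them in the same direction. Of the 108 higher pairs among them 84 were higher in both, and of the 255 lower pairs 181 were lower in both. MRPL7 differed by -3.08 (adjusted p = 9.63e-06), GDHA by 2.11 (0.000436) and ICL1 by 3.34 (0.0261) in that later change, all in the direction of 15 min. STO1 differed by 5.25 (2.08e-05), TYE7 by 4.19 (0.000664) and SOU2 by 1.82 (0.00644), all against the direction of 15 min.

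**Figure D5:**
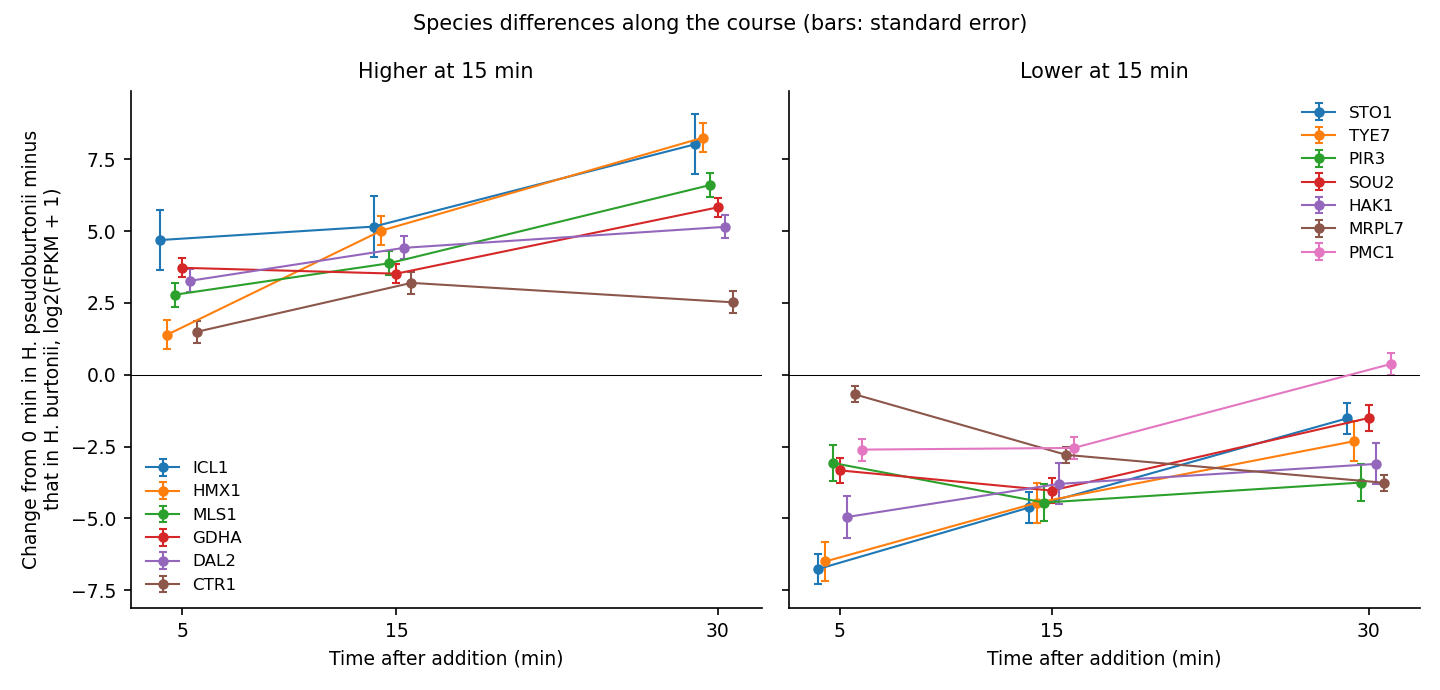
Change from 0 min in H. pseudoburtonii, less the change in H. burtonii, in log2(FPKM + 1), at 5, 15 and 30 min for 13 pairs, with standard errors as bars and points spread slightly sideways. HMX1, MLS1, GDHA and MRPL7 lie further from 0 at 30 min than at 15 min, and STO1, TYE7, SOU2 and PMC1 lie nearer.

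Other groups had smaller shares of calls than the 20.8% of all pairs, on the values as deposited. The proteasome, which degrades proteins, had 1 lower call among 38 pairs and no higher one (0 in limma, with 7 lower and 1 higher at an unadjusted p under 0.05), and without H. burtonii 0 min replicate 2 it had 8 lower. Either scaling also gave the proteasome 1 lower call, with 1 higher under median-ratio scaling. Secretion and vesicle transport had 11 lower and 2 higher calls among 95 pairs, 4 and 3 under median-ratio and 2 and 2 under quantile scaling, and between 2 lower, without H. pseudoburtonii 0 min replicate 2, and 19 lower, without H. burtonii 0 min replicate 2. Splicing had 3 lower and 1 higher among 46 pairs, 2 and 3 under median-ratio and 1 and 1 under quantile scaling. With 1 library left out its lower calls ran between 1, without H. pseudoburtonii 0 min replicate 1, and 6, without H. pseudoburtonii 15 min replicate 2, and its higher calls between 0, without H. burtonii 15 min replicate 1, and 3, without H. pseudoburtonii 15 min replicate 2. The cytoskeleton with housekeeping genes had 2 lower and 2 higher among 47 pairs, 2 and 4 under median-ratio and 2 and 6 under quantile scaling. Its lower calls ran between 1, without H. burtonii 0 min replicate 1, and 6, without H. burtonii 0 min replicate 2, and its higher calls were 4 and 0 in those fits. Peroxisomes had 1 call in each direction among 21 pairs, also under median-ratio scaling, and 1 higher and 0 lower under quantile scaling. Phosphate genes had 1 call in each direction among 20 pairs, and 4 higher (20%) and 1 lower under either scaling. Their median differences lay 0.70 and 0.82 above all pairs (0.702 for peroxisomes and 0.823 for phosphate). With 1 library left out peroxisomes had 1 to 3 higher and 0 to 2 lower calls and phosphate genes 0 to 3 higher and 0 to 2 lower.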

How the data were processed

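The yeasts and harvests are those given above. Values are FPKM in a separate table for each species, as deposited by the authors, and depth behind them is unknown. The submitters' processing notes name TopHat2 2.1.1, Cufflinks 2.2.1, CASAVA 1.8.2 and FastQC 0.11.8, with no order or settings. A genome build was not given in the sources used here, nor was an annotation. The gene identifiers, positions and names are those of the deposited tables.

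Of the 3415 pairs, 3235 were made by accession and 180 by name. Genes that share an accession with another gene of their species, 647 in H. pseudoburtonii and 1021 in H. burtonii, were not paired by accession, and a pair may still join paralogs, since in 2528 pairs the gene spans differ by less than 10% and in the others by more. A gene was tested where at least 2 of its species' 8 libraries reached 1 FPKM, and a pair where both its genes did. The deposited FPKM was taken to log2 after adding 1, and fold changes on that log2 scale understate those of low genes. The species difference was tested in limma with a prior trend on 16 libraries in 8 groups, so that all groups share 1 estimate of spread, and changes within a species were tested on its 8 libraries, both with Benjamini-Hochberg adjustment over every pair or gene tested. Intervals are those of limma at 95%. The fits were tested on simulated data.

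The pairs, the 37 gene lists and the tests were chosen with earlier results of these data known, and 13 list entries were removed because the gene of that name had another function in its description. The named pairs are those of a rule: the 15 highest and 15 lowest called differences whose single-library changes do not overlap between the species, the 2 called pairs per list with the smallest adjusted p, a set of osmotic stress genes called or not, and the 6 pairs of smallest adjusted p called in opposite directions within the species. All but the osmotic genes had a mean of at least 10 FPKM in a group. Single-library changes did not overlap between the species in any of the 707 called pairs, nor in 45.6% of all pairs, called or not. The rule named 108 pairs, of which some are left out, and 9 pairs outside it were chosen after their values were seen. Other pairs are named only to show which members of a list were called or not, and are not counted among the 82 pairs in the text. Alternatives were 2 other scalings, pseudocounts of 0.1 and 10, no filter or one at 10 FPKM, no trend, a replicate block, other pairings, a difference of at least 1, the 8 libraries of 0 and 15 min alone, and each library left out in turn. Tools were R 4.3.3, limma 3.58.1, Python 3.11.15, pandas 2.3.3, numpy 2.4.6, scipy 1.17.1 and matplotlib 3.10.9.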

Additional observations from a re-analysis of the deposited data

Results flagged for a closer look

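A test of the difference between the species' changes at 15 min flagged 707 pairs, among them the 72 called pairs whose differences are given above. These differences in log2(FPKM + 1) follow. In mitochondrial genes they were -2.79 for MRPL7, -2.76 for MRPL17, -4.44 for AIM41, -1.72 for ATP12 and -1.82 for mge1. In genes for RNA and ribosomes they were -3.28 for RRP42, -1.95 for SDO1, -3.05 for NIP7, -3.23 for LOS1, -2.46 for RPC82, -5.5 for RPC17 and 1.2 for RPL5. In the glyoxylate shunt and near it they were 5.16 for ICL1, 3.88 for MLS1, 3.74 for SFC1, 2.81 for ACS1, 1.71 for ACH1 and -2.25 for MAE1. In other carbon and oxygen genes they were -4.46 for TYE7, -2.22 for PDC11, -2.56 for PDC1, -2.0 for ADH6, -2.1 for KHT2, -4.62 for STO1, -2.39 for YHB1 and -3.11 for sre1.

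In nitrogen genes the differences were 3.52 for GDHA, 2.19 for GLN1, 2.29 for ALT1, 2.44 for GLT1, 4.42 for DAL2, 4.9 for mtr, 2.97 for CAN1, -3.0 for GAD1 and -2.18 for UGA1. In copper and iron genes they were 3.2 for CTR1, 4.78 for CTR3, 3.3 for FRE7 and 5.02 for HMX1. In lipid genes they were 2.2 for ACC1, 1.92 for FAS2 and 1.47 for ERG6. In ion and calcium genes they were -3.8 for HAK1, -2.55 for PMC1, -2.46 for cmk1, 1.39 for PPZ1, -5.4 for ALR2 and -6.22 for VMA21.

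For osmotic and general stress the values were -1.88 for PBS2, -2.13 for HOT1, 2.16 for MSN4, -4.03 for SOU2, -1.93 for gut2, -0.82 for GPD, -1.96 for CTT1, -1.17 for HSP12, -1.34 for TPS1, -1.38 for TPS2, -1.52 for TPS3, 1.72 for GPH1 and 2.04 for XYL2. For the cell wall and the cell cycle they were -4.45 for PIR3, -2.6 for GFA1, 3.11 for CHT2, 1.46 for POL30, 1.57 for RFC2 and 3.21 for the cyclin PCL1. The remaining values were -4.22 for PDE2, 3.86 for TMA10, -4.08 for Q59L72_CANAL, -4.39 for YEP4_SCHPO and -5.27 for YJ9S_YEAST.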

How the results depend on the processing

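Of the 72 called differences among the 82 pairs in the text, 63 stayed called in every one of the 16 fits without 1 library, and no difference changed sign under an alternative while called. Depth is unknown, so no limit from counting error can be given for any value. The counts of all pairs called were 669 under median-ratio and 592 under quantile scaling (296 lower), 690 and 735 with pseudocounts of 0.1 and 10, 710 without a filter, 680 with one at 10 FPKM, 691 without a trend, 662 with a difference of at least 1, 669 over pairs by accession and 531 over pairs of like span. With only the 8 libraries of 0 and 15 min in the fit, 336 pairs were called, 90 higher and 246 lower, of which 324 were called in the same direction with all 16. Without 1 library the counts lay between 407 and 787, with 122 to 224 higher and 285 to 604 lower. The replicate block gave 707 calls, 195 higher and 512 lower, and 3 of the 82 pairs lost their call, GPD (adjusted p = 0.0635), HSP12 (0.0602) and VMA21 (0.054). Replicate numbers pair nothing in the labels, and the deviations of same-numbered libraries of 0 and 15 min correlated at 0.0569 in H. pseudoburtonii and 0.515 in H. burtonii.

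Within H. burtonii, quantile scaling gave 1179 calls with 555 rises, median-ratio scaling gave 705 rises and 743 falls, and fits without 1 library gave 908 to 2024 calls, 660 to 1626 rises and 248 to 398 falls. Within H. pseudoburtonii those fits gave 255 to 1164 calls, 145 to 666 rises and 110 to 590 falls, with 282 and 255 calls without 0 min replicates 1 and 2, 637 without 15 min replicate 1 and 684 and 680 without 30 min replicates 1 and 2. Where a left-out library leaves 1 in its group, that library is taken to vary like the others.

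For the gene groups, leaving out libraries and fitting only 8 were chosen after the data were seen. Under median-ratio scaling the higher calls were 1 for RNA polymerases, 2 for the cell wall, 2 for cytosolic ribosomal proteins, 4 for glycolysis, 4 for respiration and 1 for ribosome biogenesis, and the lower calls of respiration were 8. Under quantile scaling the higher calls of those groups were 1, 2, 2, 4, 4 and 3, and those of tRNA modification 2. The lower calls under quantile scaling were 1 for the Hog1 list, 4 for RNA polymerases, 5 for nitrogen uptake and breakdown, 21 for mitochondrial ribosomal proteins, 8 for respiration, 11 for ribosome biogenesis and 7 for tRNA modification. With the 8 libraries the higher calls were 3 for nitrogen uptake and breakdown, 7 for amino acid biosynthesis, 4 for iron and copper, and 0 for glycolysis, respiration and tRNA modification. The lower calls with the 8 libraries were 0 for the Hog1 list, amino acid biosynthesis, and iron and copper, 3 for RNA polymerases, 5 for nitrogen uptake and breakdown, 3 for the cell wall, 19 for mitochondrial ribosomal proteins, 9 for respiration and 14 for ribosome biogenesis. Why these counts shifted was not tested. The fits of 8 and of 15 also hold fewer libraries, and this was not separated from which library was left out.

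Without 1 library, the calls were between 1 and 1 higher and 0 and 4 lower for the Hog1 list, 0 and 1 higher and 2 and 11 lower for RNA polymerases, and 5 and 7 higher and 2 and 5 lower for the TCA and glyoxylate list. They were 3 to 6 higher and 5 to 9 lower for nitrogen uptake and breakdown, 11 to 15 and 1 to 4 for amino acid biosynthesis, 0 to 0 and 4 to 5 for calcineurin and calcium, 1 to 2 and 5 to 8 for the cell wall, and 1 to 3 and 0 to 6 for cytosolic ribosomal proteins. For general stress they were 2 to 2 higher and 4 to 6 lower, for glycolysis 1 to 3 and 7 to 10, for iron and copper 4 to 8 and 1 to 3, and for mitochondrial ribosomal proteins 0 to 2 and 22 to 41. For respiration they were 0 to 4 higher and 7 to 19 lower, for ribosome biogenesis 0 to 5 and 15 to 48, and for tRNA modification 0 to 2 and 9 to 15.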
